A study of Drosophila melanogaster with 12 samples.

Results

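The 9 genes described here make, package and recapture the monoamine transmitters of the fly brain. They are ple, Ddc, Trh, Tdc2, Tbh, Vmat, prt, DAT and SerT, chosen by symbol from 17562 genes in a table of raw read counts. All 9 passed the filter on low counts. The study asked how TDP-43, which binds RNA and forms aggregates in motor neuron disease, disturbs sleep, and how knockdown of the ataxin-2 gene Atx2 counters this. Brains of male Drosophila melanogaster were sequenced in 4 groups of 3 libraries, which the labels call biological replicates. TDP-43/Atx2 RNAi brains carried TDP(52s) and the hairpin BL44012 against Atx2, and TDP-43/mCherry RNAi brains carried TDP(52s) and the hairpin BL35785 against mCherry, which flies lack. Control/Atx2 RNAi and control/mCherry RNAi brains carried the same hairpins without TDP(52s). Every group carried DaGS, a daughterless-GeneSwitch driver that is active when flies eat RU486, and every fly spent 6 days on RU486. Crosses were kept at 25 °C, and males were taken 1 to 2 days after they eclosed. The driver acts in most cell types, each hairpin came from a single stock, and no group without RU486 was analysed here.

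Dopamine is made from tyrosine by tyrosine hydroxylase (ple) and DOPA decarboxylase (Ddc), and serotonin from tryptophan by neuronal tryptophan hydroxylase (Trh) and Ddc. Neuronal tyrosine decarboxylase (Tdc2) makes tyramine, and tyramine beta-hydroxylase (Tbh) turns it into octopamine. The vesicular monoamine transporter Vmat loads amines into synaptic vesicles, while DAT and SerT take dopamine and serotonin back into the cell. The transporter-like protein portabella (prt) is known from mushroom body neurons, and its substrate is not established. In flies dopamine and octopamine promote wakefulness and serotonin promotes sleep, and flies that lack DAT sleep little.

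Libraries held 29184618 to 45104293 counts. Levels are in CPM, each library's counts divided by its TMM-scaled total, and tests are edgeR quasi-likelihood tests with p adjusted over 10738 genes, called below 0.05. Atx2 averaged 154.2 ± 9.29 CPM in TDP-43/Atx2 RNAi and 286.7 ± 18.5 CPM in TDP-43/mCherry RNAi brains (SD, n = 3 each). It averaged 159.8 ± 7.17 CPM in control/Atx2 RNAi and 350.3 ± 11.4 CPM in control/mCherry RNAi brains (SD, n = 3 each), so the target of the hairpin was lower with it in both backgrounds. Markers of neurons (10 genes) summed to 11650 to 12150 CPM in TDP-43/Atx2 RNAi and 11540 to 12280 CPM in TDP-43/mCherry RNAi brains. In control brains they summed to 12210 to 13020 CPM with Atx2 RNAi and 12800 to 13040 CPM with mCherry RNAi. Markers of glia (10 genes) summed to 4386 to 4580, 4572 to 4832, 5092 to 5148 and 5184 to 5805 CPM in the same order of groups. Both sums were lower in TDP-43 than in control libraries with the same hairpin, with no overlap. Single glia markers went both ways with TDP-43, with 6 of 10 called lower and 2 higher under mCherry RNAi, and 5 lower and 3 higher under Atx2 RNAi. Mdr65 averaged 315.4 ± 43.7 CPM in TDP-43/mCherry RNAi and 137 ± 14.7 CPM in control/mCherry RNAi brains (SD, n = 3 each). Of the neuron markers, 4 and 3 of 10 were called lower in these comparisons and 0 higher. Other tissues stood apart in a few libraries, where 6 gut markers summed to 1122 CPM in TDP-43/mCherry RNAi replicate 2 and 459.4 CPM in TDP-43/Atx2 RNAi replicate 2. Fat body markers (9 genes) summed to 2832, 7657 and 10670 CPM in TDP-43/mCherry RNAi replicates 1, 2 and 3. They summed to 2458 to 5202 CPM in TDP-43/Atx2 RNAi, 1373 to 1611 CPM in control/Atx2 RNAi and 1470 to 2977 CPM in control/mCherry RNAi brains. With TDP-43, 4 were called higher and 1 lower under mCherry RNAi (median log2 fold change 2.49), and 4 higher and 2 lower under Atx2 RNAi (3.28). Leaving out replicates 2 and 3 of TDP-43/mCherry RNAi does not remove this difference between groups. For the 9 genes, calls that changed without the libraries high in gut or fat body markers are given below. Other genes are given only with all libraries in the fit. In bulk brain RNA, fewer cells of a type and less RNA per cell cannot be told apart.

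Per kilobase of exon, Ddc and Vmat were the most abundant of the 9 genes in every group and SerT the least. Ddc stood at 152 ± 19.1 CPM per kb and Vmat at 105 ± 6.96 in control/mCherry RNAi brains (SD, n = 3). Tbh followed at 29.6 ± 2.93, Trh at 23.1 ± 1.84 and Tdc2 at 16.5 ± 3.43 CPM per kb. Then came ple at 14.7 ± 0.478, prt at 14.4 ± 1.72, DAT at 13.2 ± 1.11 and SerT at 8.07 ± 0.505 CPM per kb. Neighbours from Tdc2 down to DAT had overlapping libraries, while the others in that order did not overlap with the next. The place of prt changed most between groups: it was 4th in both Atx2 RNAi groups, at 20.2 ± 1.11 with TDP-43 and 21.3 ± 0.343 CPM per kb without it. In TDP-43/mCherry RNAi brains prt was 8th at 9.46 ± 1.05 CPM per kb, overlapping with DAT at 9.95 ± 1.05. Of the exon bases of Vmat, 26.2% overlap CG13330 on the opposite strand, and that gene reached at most 0.134 CPM in any library. That low count does not show whether reads in the shared bases were counted for Vmat, whose level per kb uses all its exon bases. Overlaps took 3.15% of Ddc exons (with CG10561) and 4.08% of Trh exons (with CG13912). The strand setting of the counting is not stated in the sources used here.

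**Figure D1:**
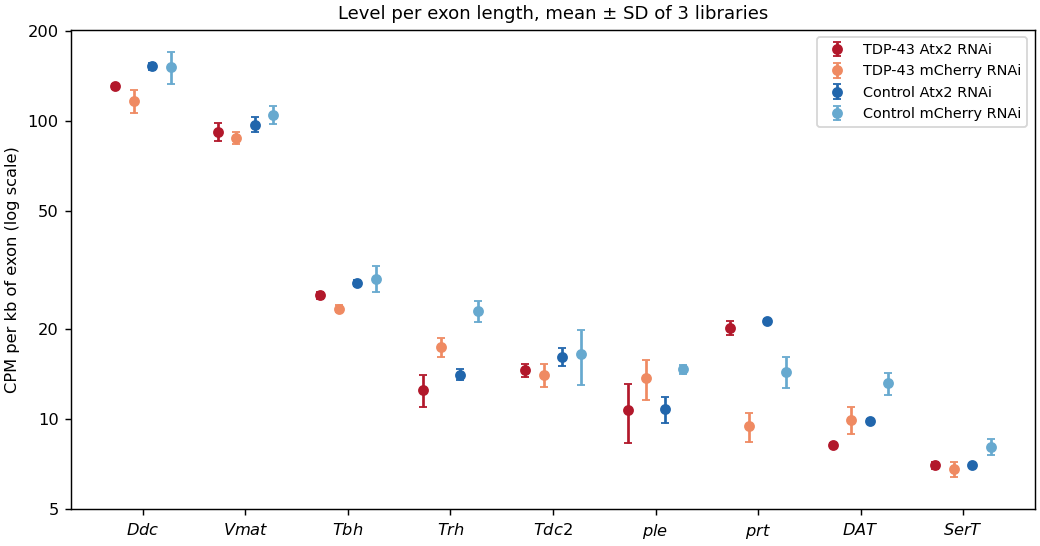
Level of each gene in CPM per kb of exon, on a log axis, as the mean of 3 libraries with SD bars, for the 4 groups. Ddc and Vmat lie above the other genes in every group, and prt is the gene whose group means differ by the largest ratio, between 9.46 and 21.3 CPM per kb.

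With mCherry RNAi, TDP-43 brains had less of most monoamine transcripts than control brains. Of the 9 genes, 7 fell and 0 rose, where 37.6% of all tested genes were called, 18.3% lower and 19.2% higher. The median log2 fold change of the 9 was -0.33, and that of all tested genes was 0.03. With Atx2 RNAi in both arms, TDP-43 brains differed from control brains in 1 gene, DAT, which fell, against 22.5% of all genes called, 10.4% lower and 12.1% higher.

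The Atx2 hairpin was tested within each background. In TDP-43 brains prt rose while Trh and DAT fell, 3 of 9 genes, against 14% of all genes called, 7.68% higher and 6.36% lower. In control brains the same 3 genes were called in the same directions, against 6.17% of all genes, 3.24% higher and 2.93% lower. Relative to control/mCherry RNAi brains, TDP-43/Atx2 RNAi brains had 1 gene higher and 6 lower, against 28% of all genes called, 14.6% higher and 13.4% lower. These comparisons share libraries with each other, so their calls are not independent.

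**Figure D2:**
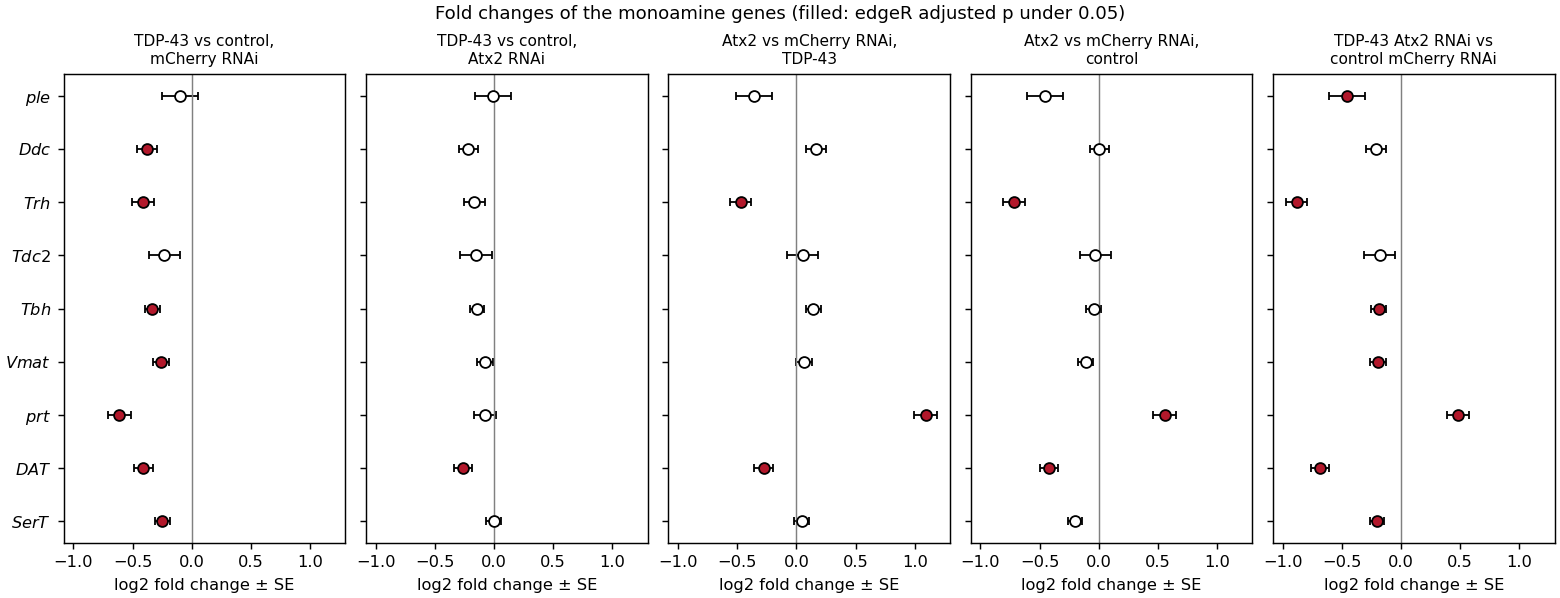
Fold changes of the 9 genes on the log2 scale, with standard errors, in 5 comparisons. Filled points have an edgeR adjusted p under 0.05. In the first panel all 9 genes lie left of 0 and 7 are filled, and prt lies right of 0 in all panels with Atx2 RNAi brains against mCherry RNAi brains.

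The first enzyme of dopamine synthesis, ple (3L, 6713356 to 6719525, dm6), had the largest coefficient of variation of the 9 genes within 3 of the 4 groups. It had 34.99, 51.38 and 36.07 CPM in TDP-43/Atx2 RNAi and 46.95, 61.65 and 48.15 CPM in TDP-43/mCherry RNAi replicates 1, 2 and 3. It had 38.91, 45.93 and 38.37 CPM in control/Atx2 RNAi and 58.12, 55.67 and 54.57 CPM in control/mCherry RNAi replicates 1, 2 and 3. Replicate 2 was the highest of its group in 3 groups, and the libraries of both Atx2 RNAi groups lay below those of control/mCherry RNAi. Between TDP-43/mCherry RNAi and control/mCherry RNAi the log2 fold change was -0.10 ± 0.15 (SE, edgeR adjusted p = 0.626). For the Atx2 hairpin it was -0.36 ± 0.15 with TDP-43 (edgeR adjusted p = 0.154) and -0.45 ± 0.15 without TDP-43 (edgeR adjusted p = 0.125). Neither was called. Same-numbered libraries of both TDP-43 groups deviated together, and ple was lower with the hairpin in each of the 3 such pairs. With a replicate block fitted over all 12 libraries, which is not a paired test of these 2 groups, the value with TDP-43 was -0.36 and called (edgeR adjusted p = 0.0305). In the 3 groups where replicate 2 was highest in ple, it was also highest in photoreceptor markers (11 genes). The markers summed to 3288, 3109 and 4508 CPM in replicate 2 of TDP-43/Atx2 RNAi, TDP-43/mCherry RNAi and control/Atx2 RNAi. The other 9 libraries had 1316 to 2810 CPM. Among them, control/mCherry RNAi libraries had 1387 to 2192 CPM of these markers, with ple at 54.57 to 58.12 CPM. Without both libraries high in gut markers, ple was called in each of these comparisons, at -0.25 for TDP-43 with mCherry RNAi (edgeR adjusted p = 0.0468), -0.43 for the hairpin with TDP-43 (0.0302) and -0.47 without TDP-43 (0.00614). Leaving out TDP-43/Atx2 RNAi replicate 2 alone gave -0.56 for the hairpin with TDP-43 (edgeR adjusted p = 0.0186) and -0.47 without TDP-43 (0.0287). The part of these other cell types in the ple values was not tested.

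Ddc (2L, 19116483 to 19120306), which serves both dopamine and serotonin synthesis, was lower with TDP-43. It had 371.6, 371.7 and 359.9 CPM in TDP-43/Atx2 RNAi and 356.6, 328.1 and 299.7 CPM in TDP-43/mCherry RNAi brains. Control brains had 439, 427 and 415.9 CPM with Atx2 RNAi and 475.3, 432.9 and 369.4 CPM with mCherry RNAi. Every TDP-43 library lay below its own control group's lowest library. With mCherry RNAi the log2 fold change was -0.38 ± 0.08 (SE, edgeR adjusted p = 0.00387), and with Atx2 RNAi in both arms it was -0.22 ± 0.08 and missed the threshold (edgeR adjusted p = 0.083). Same-numbered libraries of these Atx2 RNAi groups deviated together. With a replicate block fitted over all 12 libraries, which is not a paired test of these 2 groups, Ddc was at -0.22 and called (edgeR adjusted p = 0.021). That made 2 of the 9 genes called in that comparison, where 23.7% of all genes were. Ddc was also called without control/mCherry RNAi replicate 3, at -0.21 (edgeR adjusted p = 0.0335). The hairpin itself left Ddc uncalled, at 0.16 ± 0.08 with TDP-43 (edgeR adjusted p = 0.217) and 0.01 ± 0.08 without it (0.983).

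Trh (3L, 1190384 to 1193173), the neuronal tryptophan hydroxylase and the first step to serotonin, fell with TDP-43 and with the Atx2 hairpin. Its levels were 31.07, 26.46 and 24.59 CPM in TDP-43/Atx2 RNAi and 40.91, 37.37 and 35.54 CPM in TDP-43/mCherry RNAi brains. They were 31.01, 29.23 and 31.84 CPM in control/Atx2 RNAi and 54.34, 50.72 and 46.3 CPM in control/mCherry RNAi brains. All 6 Atx2 RNAi libraries lay below all 6 mCherry RNAi libraries, and among the mCherry RNAi libraries the TDP-43 ones were the lower. TDP-43 gave -0.41 ± 0.09 with mCherry RNAi (edgeR adjusted p = 0.00393). The hairpin gave -0.47 ± 0.09 with TDP-43 (edgeR adjusted p = 0.00577) and -0.72 ± 0.09 without it (0.000779). Without both libraries high in gut markers the hairpin's value with TDP-43 was -0.47 and no longer called (edgeR adjusted p = 0.062). The 2 Atx2 RNAi groups overlapped, at -0.17 ± 0.09 for TDP-43 (edgeR adjusted p = 0.225). TDP-43/Atx2 RNAi brains had the lowest mean, 27.37 ± 3.34 CPM, against 50.45 ± 4.03 CPM in control/mCherry RNAi brains (SD, n = 3 each), a log2 difference of -0.88 ± 0.09 (edgeR adjusted p = 2.26e-05). The gene white (w), which encodes a transporter subunit for pigment precursors including tryptophan, the substrate of this enzyme, averaged 2046 ± 53 CPM in TDP-43/Atx2 RNAi and 2199 ± 194 CPM in TDP-43/mCherry RNAi brains. It averaged 13.22 ± 1.65 CPM in control/Atx2 RNAi and 10.51 ± 0.693 CPM in control/mCherry RNAi brains (SD, n = 3 each). White level and TDP-43 status separate the same libraries, so their parts cannot be told apart here.

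In the octopamine branch, Tdc2 (2R, 6684745 to 6689974) did not pass the test in any comparison. It had 35.27, 33.67 and 31.87 CPM in TDP-43/Atx2 RNAi and 34.82, 33.16 and 29.17 CPM in TDP-43/mCherry RNAi brains. Control brains had 36.48, 40.33 and 35.17 CPM with Atx2 RNAi and 42.67, 42.61 and 28.97 CPM with mCherry RNAi. The lowest of all 12 libraries was control/mCherry RNAi replicate 3, so the groups overlapped in the comparison of TDP-43 with control under mCherry RNAi, at -0.23 ± 0.13 (edgeR adjusted p = 0.189). Without that library the value was -0.41 and called (edgeR adjusted p = 0.0041), and that of TDP-43/Atx2 RNAi against control/mCherry RNAi was -0.36 (0.0113), against -0.18 ± 0.13 with it (0.345).

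Tbh (X, 7995697 to 8027394), the next step to octopamine, fell with TDP-43. It had 103.4, 100 and 97.87 CPM in TDP-43/Atx2 RNAi and 93.63, 89.74 and 89.37 CPM in TDP-43/mCherry RNAi brains. Control brains had 114, 110.4 and 108.7 CPM with Atx2 RNAi and 114.8, 125.8 and 103.1 CPM with mCherry RNAi. The TDP-43/mCherry RNAi libraries were the 3 lowest and did not overlap with any other group. TDP-43 gave -0.33 ± 0.06 with mCherry RNAi (edgeR adjusted p = 0.00126) and -0.15 ± 0.06 with Atx2 RNAi, which was not called (0.115). The hairpin gave 0.14 ± 0.06 in TDP-43 brains, with all 3 libraries higher but no call (edgeR adjusted p = 0.146), and -0.04 ± 0.06 in control brains (0.748).

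**Figure D3:**
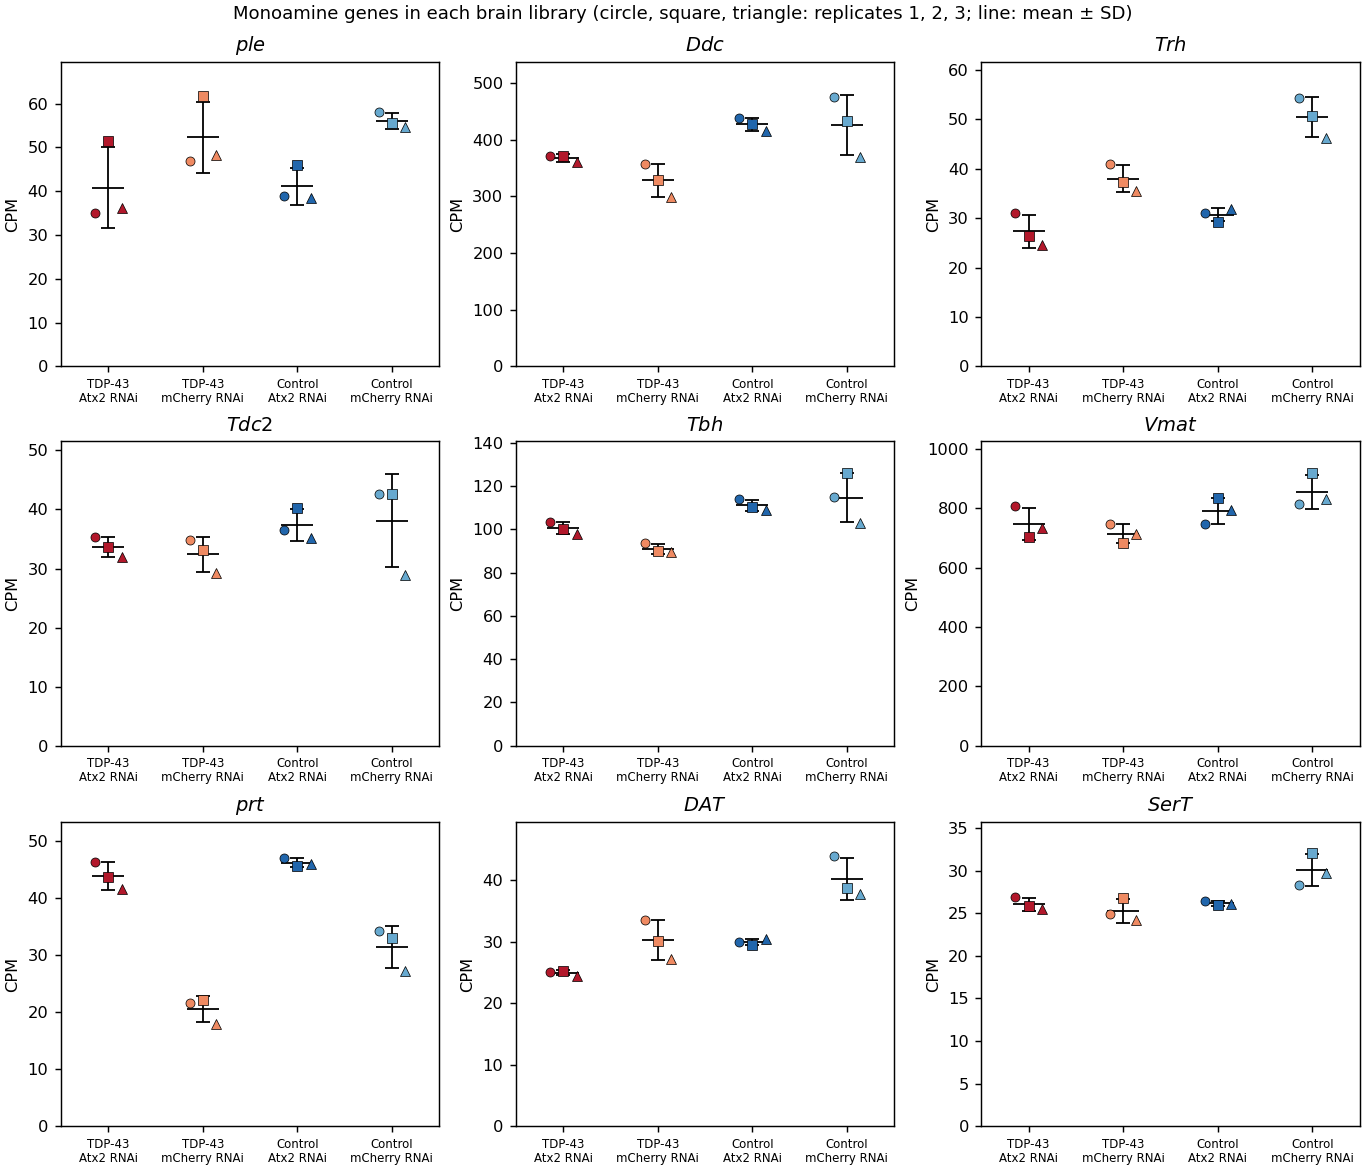
Level of each gene in CPM in all 12 libraries, with a panel for each gene, the 4 groups side by side, and the mean with SD bars. The 3 TDP-43/mCherry RNAi libraries of prt lie between 17.95 and 22.12 CPM, below all other groups, and the 6 Atx2 RNAi libraries of Trh lie below its 6 mCherry RNAi libraries.

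Vmat (2R, 13513132 to 13534251), the vesicular transporter shared by all aminergic neurons, had the most counts of the 9. It had 808.7, 702.5 and 735.1 CPM in TDP-43/Atx2 RNAi and 747.4, 684.5 and 712.8 CPM in TDP-43/mCherry RNAi brains. Control brains had 746, 835.7 and 793.4 CPM with Atx2 RNAi and 816.4, 920.7 and 830.4 CPM with mCherry RNAi. All 6 TDP-43 libraries lay below the control/mCherry RNAi libraries, while control/Atx2 RNAi overlapped with each of the other groups. With mCherry RNAi in both arms TDP-43 gave -0.26 ± 0.07 and was called (edgeR adjusted p = 0.0094). The hairpin gave 0.07 ± 0.07 with TDP-43 (edgeR adjusted p = 0.555) and -0.11 ± 0.07 without it (0.391), and neither was called.

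The transcript of portabella, prt (3R, 23696372 to 23699027), fell with TDP-43 under mCherry RNAi and rose with the Atx2 hairpin in both backgrounds. It had 46.44, 43.81 and 41.59 CPM in TDP-43/Atx2 RNAi and 21.7, 22.12 and 17.95 CPM in TDP-43/mCherry RNAi brains. Control brains had 47.11, 45.69 and 46.01 CPM with Atx2 RNAi and 34.22, 32.97 and 27.18 CPM with mCherry RNAi. The 6 Atx2 RNAi libraries were all above the 6 mCherry RNAi libraries, and the 3 TDP-43/mCherry RNAi libraries were the lowest. TDP-43 gave -0.61 ± 0.10 with mCherry RNAi (edgeR adjusted p = 0.000426) and -0.08 ± 0.09 with Atx2 RNAi (0.632), where the libraries overlapped. The hairpin gave 1.09 ± 0.10 with TDP-43, a 2.13-fold higher level (edgeR adjusted p = 4.37e-05), and 0.56 ± 0.10 without TDP-43, a 1.47-fold higher level (0.00527). Against control/mCherry RNAi brains, TDP-43/Atx2 RNAi brains were also higher, at 0.48 ± 0.10 (edgeR adjusted p = 0.00248). These 4 calls held when each library was left out in turn. Because prt is known from the intrinsic neurons of the mushroom body, Kenyon cell markers are given beside it. The 9 markers summed to 3511 to 3637 CPM in TDP-43/Atx2 RNAi, 3246 to 3501 CPM in TDP-43/mCherry RNAi, 3792 to 3952 CPM in control/Atx2 RNAi and 3841 to 3994 CPM in control/mCherry RNAi brains. With TDP-43 under mCherry RNAi 7 of these 9 markers fell, against 18.3% of all genes, with a median log2 fold change of -0.21. With the hairpin in TDP-43 brains 1 of 9 rose, rut (0.29, edgeR adjusted p = 0.00823), against 7.68% of all genes. There 6 had an unadjusted p under 0.05, the median was 0.13, and the sums lay above those of TDP-43/mCherry RNAi brains with no overlap. With the hairpin in control brains edgeR called 0 of 9 (3 with an unadjusted p under 0.05), against 6.17% of all genes, with a median of 0.05. The share of all genes with an unadjusted p under 0.05 was not computed. The part of Kenyon cell RNA in the prt values was not tested.

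DAT (2R, 16558567 to 16565238), which clears dopamine and whose loss gives short-sleeping flies, fell with TDP-43 and with the Atx2 hairpin. It had 25.12, 25.25 and 24.49 CPM in TDP-43/Atx2 RNAi and 33.53, 30.07 and 27.13 CPM in TDP-43/mCherry RNAi brains. Control brains had 29.97, 29.4 and 30.47 CPM with Atx2 RNAi and 44, 38.7 and 37.74 CPM with mCherry RNAi. TDP-43/Atx2 RNAi libraries were the lowest and control/mCherry RNAi libraries the highest, and the other two groups overlapped between them. TDP-43 gave -0.41 ± 0.08 with mCherry RNAi (edgeR adjusted p = 0.0017) and -0.26 ± 0.08 with Atx2 RNAi (0.0324). The second call was lost without any single library of the 2 groups compared, at -0.24 to -0.27 (edgeR adjusted p from 0.0774 to 0.118). The hairpin gave -0.42 ± 0.08 in control brains (edgeR adjusted p = 0.00897) and -0.28 ± 0.08 in TDP-43 brains (0.0365). The call in TDP-43 brains held without TDP-43/mCherry RNAi replicate 3 or any control/mCherry RNAi replicate, and was lost without any of the other 8 libraries, at -0.20 to -0.29 (edgeR adjusted p from 0.0515 to 0.131). Without both libraries high in gut markers both calls were lost, at -0.30 for the hairpin in TDP-43 brains (edgeR adjusted p = 0.163) and -0.27 for TDP-43 with Atx2 RNAi (0.105). With only the groups compared in the fit, the hairpin's call in TDP-43 brains was also lost, at -0.28 (edgeR adjusted p = 0.0965). TDP-43/Atx2 RNAi brains against control/mCherry RNAi brains gave -0.69 ± 0.08 (edgeR adjusted p = 5.4e-05).

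SerT (2R, 24404595 to 24411074), which clears serotonin, was highest in control/mCherry RNAi brains. It had 26.94, 25.82 and 25.47 CPM in TDP-43/Atx2 RNAi and 24.89, 26.82 and 24.15 CPM in TDP-43/mCherry RNAi brains. Control brains had 26.45, 25.96 and 26.04 CPM with Atx2 RNAi and 28.35, 32.07 and 29.73 CPM with mCherry RNAi. The first 3 of these groups overlapped, and all their libraries lay below the control/mCherry RNAi libraries. TDP-43 gave -0.25 ± 0.06 with mCherry RNAi (edgeR adjusted p = 0.00729), and missed the threshold with only the groups compared in the fit (0.0534). The hairpin gave -0.20 ± 0.06 in control brains, which was not called (0.0819). TDP-43 with Atx2 RNAi gave -0.004 ± 0.061 (edgeR adjusted p = 0.969).

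The 7 genes lower with TDP-43 under mCherry RNAi were Ddc, Trh, Tbh, Vmat, prt, DAT and SerT. Each remained called when any single library was left out. When both TDP-43 libraries high in fat body markers were left out, which leaves 1 library in that group and assumes that it varies like the others, Tbh (-0.29, edgeR adjusted p = 0.0451) and prt (-0.53, 0.0098) remained called. That is 2 of 9 genes, where the same fit called 20.6% of all genes tested, so the members' count was then near the background. All 9 log2 fold changes were then still below 0, from -0.13 for Tdc2 to -0.53 for prt. With all libraries in the fit, neuron markers in this comparison had 4 of 10 members lower and 0 higher, with a median of -0.13. Of all tested genes 18.3% were lower and 19.2% higher. Genes of other fast transmitters, such as the vesicular acetylcholine transporter VAChT (-0.35 ± 0.05, edgeR adjusted p = 0.000373) and the vesicular glutamate transporter VGlut (-0.33 ± 0.04, 8.41e-05), had 6 of 10 lower and 0 higher, with a median of -0.24. Lower levels were thus measured in transmitter genes outside the monoamine group too.

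Against control/mCherry RNAi brains, the 6 genes lower in TDP-43/Atx2 RNAi brains were ple, Trh, Tbh, Vmat, DAT and SerT. Trh, DAT and prt were called with each library left out. The other 4 calls depended on single libraries, and 3 genes remained called without TDP-43/Atx2 RNAi replicate 3 or without control/mCherry RNAi replicate 2. The count was 4 without TDP-43/Atx2 RNAi replicate 2, control/Atx2 RNAi replicate 3 or control/mCherry RNAi replicate 1. It was also 4 without both libraries high in gut markers, where Tbh, SerT and Vmat were lost. That fit called 20.7% of all genes, and the fits without a single library called 20.4% to 29.7%. The values of ple (-0.46 ± 0.15, edgeR adjusted p = 0.0462), Vmat (-0.19 ± 0.07, 0.0491), Tbh (-0.19 ± 0.06, 0.0372) and SerT (-0.21 ± 0.06, 0.0262) lay close to the threshold. Ddc was at -0.21 ± 0.08 and not called (edgeR adjusted p = 0.0767).

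Whether the effect of the hairpin depended on TDP-43 was tested as an interaction, which is the hairpin's log2 fold change with TDP-43 minus that without it. It was called for 0 of the 9 genes by edgeR, against 0.428% of all genes, 0.261% higher and 0.168% lower. All 9 values were above 0, with a median of 0.18 against -0.02 over all genes. Of the 9, 2 had an unadjusted p under 0.05, but the share of all genes under that cutoff was not computed. The largest was prt, at 0.54 ± 0.13 (unadjusted p = 0.00183, edgeR adjusted p = 0.104). DESeq2 called prt (0.55, adjusted p = 0.00667), 1 of 9 genes, and 9.91% of the 5107 genes to which it gave an adjusted p. Limma-voom called 0 of the 9, and edgeR without control/mCherry RNAi replicate 3 called prt (0.65, adjusted p = 0.0384). SerT was next to have a low unadjusted p, at 0.25 ± 0.09 (unadjusted p = 0.0152, edgeR adjusted p = 0.212). Not all values stayed above 0 when libraries were left out. With single libraries left out, ple ran from -0.093 to 0.249 and Tdc2 from -0.007 to 0.264, and the other genes stayed above 0. Without both TDP-43/mCherry RNAi libraries high in fat body markers, 1 library is left in that group. Tdc2 was then at -0.025 and DAT at -0.006, and the other genes lay from 0.038 (Ddc) to 0.458 (prt).

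Ratios of transcripts within a library do not depend on library scaling, and 4 were tested for TDP-43 and for the hairpin, 8 tests in all. Labels were permuted within the other factor, 400 arrangements, so that the smallest p is 0.005. Trh over SerT, synthesis against reuptake of serotonin, fell with the hairpin. It was 0.966 to 1.15 in TDP-43/Atx2 RNAi and 1.39 to 1.64 in TDP-43/mCherry RNAi brains, and 1.13 to 1.22 in control/Atx2 RNAi and 1.56 to 1.92 in control/mCherry RNAi brains. Libraries with the hairpin lay below those without it in both backgrounds, and the log2 difference was -0.52 (two-sided exact permutation p = 0.005, the smallest possible, adjusted over the 8 tests 0.04). It was -0.52 in TDP-43 brains and -0.52 in control brains. The ratio of ple to Ddc also fell with the hairpin, by 0.50 on the log2 scale (exact permutation p = 0.01, adjusted 0.04). It ranged from 0.0942 to 0.138 in TDP-43/Atx2 RNAi, 0.132 to 0.188 in TDP-43/mCherry RNAi, 0.0886 to 0.108 in control/Atx2 RNAi and 0.122 to 0.148 in control/mCherry RNAi brains, so that the TDP-43 groups overlapped. This call was lost without any of 8 single libraries, with adjusted exact permutation p from 0.06 to 0.08. It held without replicates 2 and 3 of control/Atx2 RNAi, replicate 2 of TDP-43/Atx2 RNAi and replicate 1 of TDP-43/mCherry RNAi, each left out alone.

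The ratio of ple to DAT differed by -0.07 with the hairpin (exact permutation p = 0.6, adjusted 0.686) and by 0.27 with TDP-43 (exact permutation p = 0.065, adjusted 0.13), neither of which passed. Trh over SerT was -0.16 with TDP-43 (exact permutation p = 0.045, adjusted 0.12). For ple over Ddc with TDP-43 the difference was 0.22 (exact permutation p = 0.095, adjusted 0.152). Tdc2 over Tbh, both in the octopamine branch, differed by 0.05 with TDP-43 (exact permutation p = 0.475, adjusted 0.633) and by -0.03 with the hairpin (p = 0.715, adjusted 0.715).

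**Figure D4:**
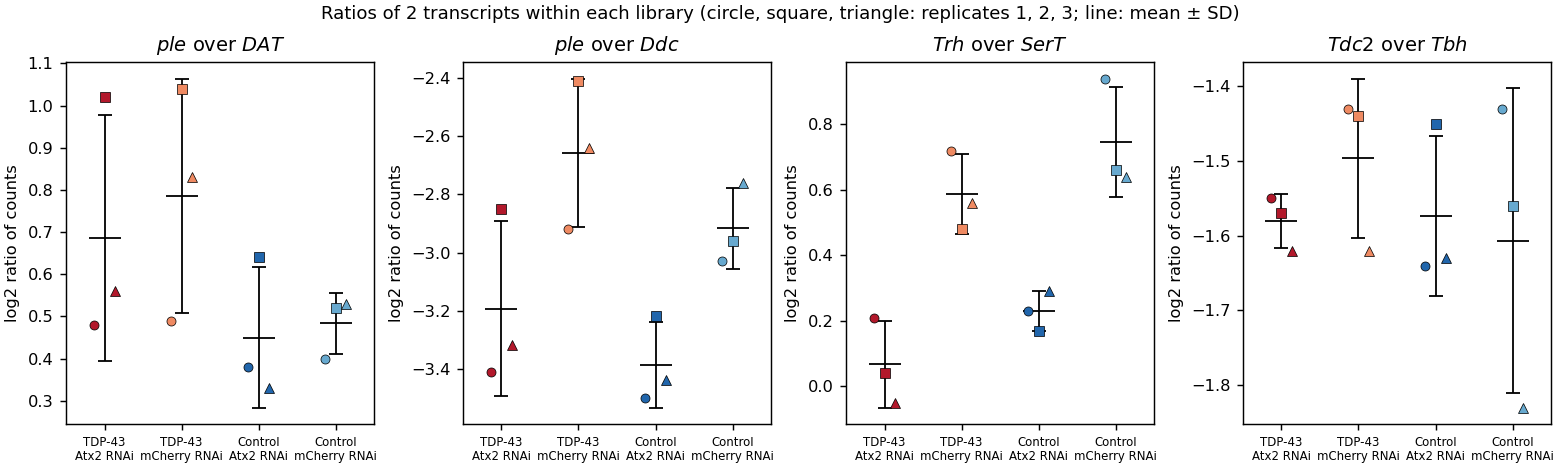
Log2 ratios of paired transcripts in each of the 12 libraries, by group, with the mean and SD bars. In the panel of Trh over SerT both Atx2 RNAi groups lie below both mCherry RNAi groups, and in that of Tdc2 over Tbh the 4 groups overlap.

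Across the 12 libraries, levels of some members moved together, as a description over libraries that share 4 group means. Trh and DAT had a Pearson correlation of log2 CPM of 0.93, Ddc and Tbh 0.91 and Ddc and Tdc2 0.82. After removal of group means these were 0.68, 0.66 and 0.88. Trh and prt were at -0.49 across libraries and at 0.75 after removal of group means. Both fell with TDP-43 under mCherry RNAi, and they changed in opposite directions with the hairpin. Among all tested genes at 5 CPM or more, prt was most alike to the octopamine receptor gene Octbeta3R (0.973), rdgC (0.966) and CG2269 (0.965). DAT was most alike to Gad1, the glutamate decarboxylase of GABA neurons (0.972), Gdh (0.967) and PMP34 (0.964), and Trh to CG13928 (0.955), GalT1 (0.954) and TBCB (0.951). The closest were PVRAP, Pal2 and sca for Ddc (0.985, 0.974 and 0.969), CRMP, CG3548 and rn for Tbh (0.966, 0.961 and 0.953) and nord, CG5079 and Rfx for Tdc2 (0.914, 0.861 and 0.857). They were mAChR-A, PTP-ER and Sara for SerT (0.928, 0.924 and 0.907), Lgr3, M1BP and tyn for Vmat (0.892, 0.891 and 0.891) and Ubi-p63E, lqfR and CG34377 for ple (0.874, 0.874 and 0.87). All were picked as the highest of 7602 genes. After removal of group means these correlations ran from 0.43 (CG13928 with Trh) to 0.96 (PVRAP and Pal2 with Ddc). Octbeta3R and rdgC were then at 0.61 and 0.53 with prt, and CG2269 at 0.86.

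The products of ple and Trh need the cofactor tetrahydrobiopterin. Of 6 genes listed with this cofactor (Pu, pr, Sptr, Pcd, Dhpr and Hn), 0 rose and 1 fell with TDP-43 under mCherry RNAi. Of all tested genes 19.2% rose and 18.3% fell. The cofactor gene that fell was Pcd, which recycles the cofactor (-0.29 ± 0.09, edgeR adjusted p = 0.0242). Punch (Pu), GTP cyclohydrolase and the first step to the cofactor, fell with the Atx2 hairpin in both backgrounds. It averaged 18.22 ± 1.49 CPM in TDP-43/Atx2 RNAi and 22.79 ± 2.73 CPM in TDP-43/mCherry RNAi brains (SD, n = 3 each), at -0.32 ± 0.09 (edgeR adjusted p = 0.0379), with overlapping libraries. It averaged 20.81 ± 1.27 CPM in control/Atx2 RNAi and 27.05 ± 0.78 CPM in control/mCherry RNAi brains, at -0.38 ± 0.09 (edgeR adjusted p = 0.0327). Purple (pr), which acts in the same pathway, rose with the hairpin in TDP-43 brains. It averaged 27.95 ± 1.97 CPM in TDP-43/Atx2 RNAi and 21.68 ± 2.12 CPM in TDP-43/mCherry RNAi brains (SD, n = 3 each) with no overlap, at 0.37 ± 0.10 (edgeR adjusted p = 0.0263). Among 3 regulators of tyrosine hydroxylase, Catsup, which holds Ple activity down, rose with TDP-43 under mCherry RNAi (0.46 ± 0.08, edgeR adjusted p = 0.00115), while 14-3-3zeta (-0.49 ± 0.05, 8.59e-06) and 14-3-3epsilon (-0.16 ± 0.05, 0.0183) fell.

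Tdc1, the non-neuronal tyrosine decarboxylase and paralog of Tdc2, rose with TDP-43. It had 4.216, 11.94 and 5.766 CPM in TDP-43/mCherry RNAi and 0.5968, 0.4017 and 0.561 CPM in control/mCherry RNAi brains, with no overlap, at 3.80 ± 0.45 (edgeR adjusted p = 6.63e-05). With Atx2 RNAi it had 2.993, 3.915 and 1.909 CPM in TDP-43 and 0.4281, 0.6611 and 0.8682 CPM in control brains (2.17 ± 0.42, edgeR adjusted p = 0.00327). The highest library, TDP-43/mCherry RNAi replicate 2, was also the highest in gut markers, whose part was not tested. Of 10 genes of amine conjugation and acylation 6 were tested, and AANAT1, which acetylates dopamine and serotonin, fell with TDP-43 under mCherry RNAi (-0.31 ± 0.05, edgeR adjusted p = 0.000908).

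Receptors for the amines moved in both directions with TDP-43 under mCherry RNAi, with 4 of 17 higher and 7 lower and a median of -0.08. Of all tested genes 19.2% were higher and 18.3% lower. The dopamine receptors Dop2R (0.67 ± 0.05, edgeR adjusted p = 8.11e-07) and Dop1R1 (0.78 ± 0.09, 3.59e-05) rose most. TyrR, a tyramine receptor (-0.46 ± 0.08, edgeR adjusted p = 0.000748), and Octalpha2R, an octopamine receptor (-0.23 ± 0.04, 0.00119), were among those that fell. With the Atx2 hairpin 8 of 17 rose and 0 fell in TDP-43 brains, with a median of 0.21, against 7.68% and 6.36% of all genes. In control brains 3 rose and 1 fell, with a median of 0.08, against 3.24% and 2.93% of all genes. Octbeta3R rose in both, at 0.44 ± 0.05 (edgeR adjusted p = 0.000128) and 0.31 ± 0.05 (0.00234). In TDP-43/Atx2 RNAi against control/Atx2 RNAi brains 5 receptors rose and 3 fell, against 12.1% and 10.4% of all genes. Dop2R rose there too, at 0.94 ± 0.05 (edgeR adjusted p = 7.54e-08). Dop2R averaged 177 ± 4.94 CPM in TDP-43/Atx2 RNAi, 153.1 ± 3.8 CPM in TDP-43/mCherry RNAi, 92.46 ± 4.77 CPM in control/Atx2 RNAi and 96.03 ± 3.44 CPM in control/mCherry RNAi brains (SD, n = 3 each).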

How the data were processed

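The authors deposited a table of raw counts per gene for 12 brain libraries. Per the labels' protocols a stranded mRNA kit was used, and STAR 2.7.3a, Trim Galore, SAMtools, DESeq2 and the build dm6 appear in the submitters' processing notes. Testing used edgeR 4.0.16 in R 4.3.3: filterByExpr (10738 genes kept, 6824 removed), TMM factors of 0.962 to 1.03, a mean for each of 4 groups, 8 residual degrees of freedom, the robust quasi-likelihood test and Benjamini-Hochberg adjustment over all tested genes. CPM was computed from the deposited counts, and exon lengths came from a gene annotation of dm6. Trh is listed under its older symbol. P-values measure the spread between libraries labelled as biological replicates; replicate pairs differed beyond sampling noise. Alternatives were DESeq2 1.42.0, limma-voom 3.58.1, other scalings and filters, only the groups compared, a replicate block, an adjusted p of 0.01 and left-out libraries. Replicate numbers were taken to pair 2 groups where all 3 same-numbered pairs of libraries deviated together (correlation over 0.1). This held for TDP-43/Atx2 RNAi with TDP-43/mCherry RNAi (0.269 to 0.77) and with control/Atx2 RNAi (0.25 to 0.564), and not for the other 4 pairs of groups. The numbers come from the library titles, which do not say what they mark. The replicate block fits 1 set of replicate effects over all 12 libraries. It therefore includes groups whose same-numbered libraries did not deviate together, such as the control groups (-0.529 to -0.025), and is not a paired test of 2 groups. Steps were tested on simulated data. Python 3.11.15 was used for ratios.

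All 9 members are named, with up to 4 called genes per list and direction by smallest adjusted p, and the 3 genes of 5 CPM or more most correlated with each member. Members and lists were chosen with earlier results of these data known.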

Additional observations from a re-analysis of the deposited data

How the results depend on the processing

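No called value changed direction under the alternatives run. The number of the 9 genes called for TDP-43 with mCherry RNAi was 7, and 2 without both TDP-43/mCherry RNAi libraries high in fat body markers, an alternative chosen after seeing the data, in which 20.6% of all genes were called. For the hairpin in control brains DESeq2 called 5 in place of 3, adding ple (-0.46, adjusted p = 0.0298) and SerT (-0.21, 0.0496). It called 9.24% of all genes there. For the hairpin in TDP-43 brains the count of 3 became 2 with only the groups compared (8.64% of all genes called). It was also 2 at an adjusted p of 0.01 (5.93%) and without both libraries high in gut markers (4.32%), where ple was gained. With single libraries left out it ran from 2 to 3, with 6.7% to 15.1% of all genes called. For TDP-43/Atx2 RNAi against control/Atx2 RNAi the count of 1 became 2 with DESeq2 (25.6% of all genes called) and 3 with only the groups compared (27%). It became 0 at an adjusted p of 0.01 (12.6%) and 0 without both libraries high in gut markers (14.6%). With single libraries left out it ran from 0 to 2, with 14.7% to 23.5% of all genes called. For TDP-43/Atx2 RNAi against control/mCherry RNAi the count of 7 became 3 with upper quartile scaling (26.3% of all genes called) and 3 with only the groups compared (27.3%). It became 3 at an adjusted p of 0.01 (16.8%) and 4 without both libraries high in gut markers (20.7%). With single libraries left out it ran from 3 to 7, with 20.4% to 29.7% of all genes called. The interaction was called for 0 genes and for 1 with DESeq2 (which called 9.91% of the genes it gave an adjusted p). With single libraries left out it was called for 0 to 1, with 0.0917% to 0.618% of all genes called. With single libraries left out, ple over Ddc ran from -0.586 to -0.440 for the hairpin, ple over DAT from 0.182 to 0.341 for TDP-43, and Tdc2 over Tbh from -0.002 to 0.1 for TDP-43 and from -0.084 to 0.017 for the hairpin. The cause was not tested.

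Same-numbered libraries deviated together in 2 of the 5 comparisons between groups. With the replicate block, 4 genes were called for the hairpin in TDP-43 brains, adding ple (-0.36, edgeR adjusted p = 0.0305), where 16% of all genes were. For TDP-43/Atx2 RNAi against control/Atx2 RNAi it called 2 genes, adding Ddc, and 23.7% of all genes. For the interaction it called 1, prt (0.53, edgeR adjusted p = 0.0371), and 1.29% of all genes. In comparisons whose groups the numbers did not pair, the replicate block also called ple for the hairpin in control brains (-0.46, 0.0213) and Ddc for TDP-43/Atx2 RNAi against control/mCherry RNAi (-0.20, 0.0213), and lost Vmat there (-0.19, 0.0658). It changed no other call of the 9 genes.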
